A study of Mus musculus with 26 samples.

Results

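The genes described here are the mouse Zfp genes (symbol Zfp plus a number, the rule excluding Zfp57) expressed in libraries labelled pachytene spermatocytes. Pachytene spermatocytes are the male germ cells in mid-prophase of meiosis. Members were chosen by a mean of 10 CPM or more (counts-per-million, with all reads assigned to genes as the total) in the 2 wild-type pachytene spermatocyte libraries. Of 358 such rows among 24682 gene rows, 147 were members, 211 fell under the threshold, and 9 of those had no read in either library. All 147 passed the filter on low counts in each comparison below.

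The study profiled total RNA of C57BL/6 mouse testes at postnatal day 21. The testis groups were Nkapl knockout (2 libraries) with its wild type (3), Sox30 knockout (2) with its wild type (3), and homozygous Nkapl TGdel (3), an allele the labels call TGdelete, with its own wild type (2). A further 4 groups of 2 libraries each were labelled pachytene spermatocytes or round spermatids of testis, from wild-type and Nkapl knockout mice of the same age, with no strain or method of isolation in the labels. The labels name no Cre driver, pooling or clone, and give no other allele to any group. Libraries were assigned to groups by the name at the head of each count column, since 15 of the 18 testis files carried a column named for another sample and 3 files repeated a column. In 4 testis libraries the column name and the file's record gave different groups: wild-type replicate 3 of the Nkapl and of the Sox30 set, and wild-type replicate 2 and TGdel replicate 3 of the TGdel set. The series states triplicates without saying more of the animals, so p-values measure the spread between these libraries. As chi-square per degree of freedom against counting alone, this spread was 1.4 in knockout spermatocytes and 1.77 in knockout spermatids. It was 4.85 and 2.45 in wild-type spermatocytes and spermatids, and 1.93 to 42 in pairs of testis libraries. The knockout replicates of these cells thus differed little beyond counting.

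Zfp genes encode zinc finger proteins, most of them with tandem C2H2 fingers, in which paired cysteines and histidines hold a zinc ion and the finger reads a few bases of DNA. A large subgroup also carries a KRAB box, which recruits the co-repressor Trim28 and through it the H3K9 methyltransferase Setdb1, a route best known for silencing transposons. After meiosis, round spermatids run a germ-cell programme of their own before their chromatin is packed with protamines. Nkapl is a testis-expressed relative of the nuclear protein Nkap, and Sox30 is an HMG-box transcription factor that haploid germ cell development requires.

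Library totals ran from 16469667 to 40010106 reads in gene rows. As a check of the labels, Nkapl was at 60.8 and 57.8 CPM in knockout testis against 74.9, 79.5 and 79.9 in wild type, and at 24.6 and 23.6 CPM in knockout round spermatids against 88.4 and 90.3 in wild type. The spermatocyte libraries labelled knockout went against their label, with Nkapl at 127 and 125 CPM against 90.1 and 86. In TGdel testis Nkapl was at 107, 118 and 126 CPM against 101 and 103 CPM in its wild type, so it was not lower there either. Sox30 was at 44.7 and 61.5 CPM in Sox30 knockout testis against 77.6, 86.2 and 72.4 in wild type. The labels do not place the alleles within their genes, and reads outside a deleted part would still be counted. The 12 round spermatid markers summed to 7181 to 7366 CPM in wild-type spermatid libraries and 3116 to 3291 CPM in wild-type spermatocyte libraries. Their sum was 2753 to 2761 CPM in knockout spermatid, 1375 to 1384 CPM in knockout spermatocyte and 451 to 484 CPM in Nkapl wild-type testis libraries. The wild-type spermatocyte libraries, which chose the members, thus had a higher sum of spermatid markers than the knockout spermatid libraries. Which cells in them gave the members' reads was not tested. Pachytene markers summed to 4925 to 5149 CPM in wild-type spermatocyte, 3203 to 3222 CPM in wild-type spermatid and 3779 to 3837 CPM in Nkapl wild-type testis libraries. Sertoli markers summed to 238 to 252 CPM in wild-type spermatocyte libraries and 21.7 to 23.2 CPM in wild-type spermatid libraries.

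The member levels in this paragraph are the values the members were selected on. They are a description, in CPM before any scaling between libraries. The median member was at 27.6 CPM, with quartiles of 17.1 and 59.4 CPM, and 18 members reached 100 CPM. Zfp654 had the highest mean, at 617 and 523 CPM in the 2 libraries, followed by Zfp646 at 556 and 544, Zfp541 at 490 and 476, Zfp574 at 412 and 442, and Zfp318 at 419 and 372 CPM. Zfp541 is a germ cell protein that works with histone deacetylases and is required for exit from meiotic prophase. The next were the SUMO ligase gene Zfp451 at 377 and 343 CPM, Zfp39 at 340 and 305, Zfp110 at 305 and 283, Zfp217 at 290 and 262, and Zfp35 at 257 and 247 CPM. Per kilobase of exon the order changed: Zfp541 led at 99.1 CPM per kb, then Zfp654 at 91.0, Zfp574 at 87.7, and Zfp35 and Zfp39 both at 82.9. Just inside the threshold lay Zfp408 at 10.1, Zfp809 at 10.1 and Zfp296 at 10.2 CPM, and just outside it Zfp981 at 9.42, Zfp933 at 9.44 and Zfp655 at 9.65 CPM. Summed over members, the level ran from 9040 to 9509 CPM in the wild-type spermatocyte libraries, which is 0.904% and 0.951% of their reads in gene rows.

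**Figure D1:**
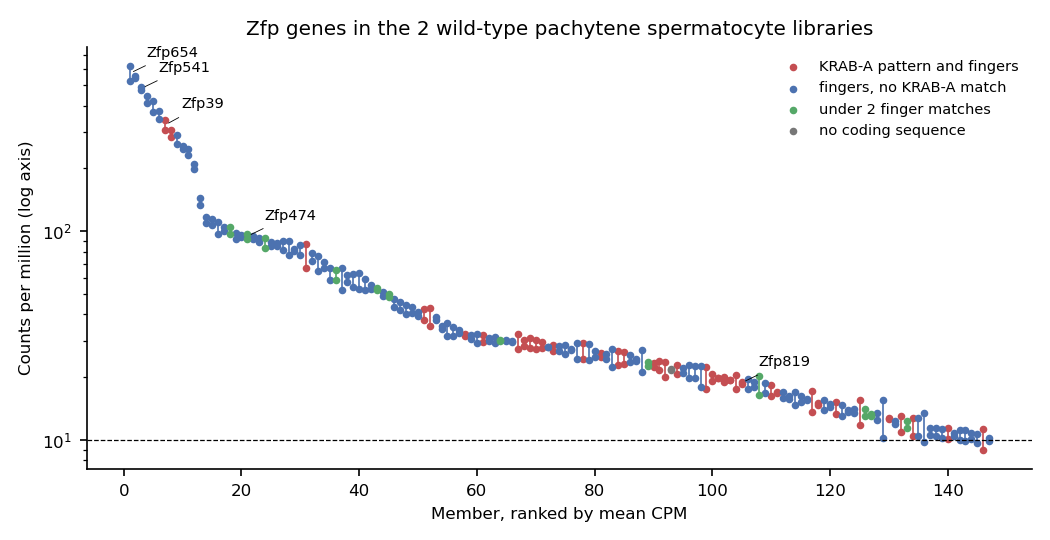
Level of each of the 147 members in the 2 wild-type pachytene spermatocyte libraries (points joined by a line, unscaled CPM on a log axis), ranked by their mean and coloured by the protein patterns found. The dashed line is the threshold of 10 CPM that chose the members; Zfp654 leads at 617 and 523 CPM, and 2 of the 10 highest, Zfp39 and Zfp110, have a KRAB-A match.

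Protein patterns, which the rule did not use, were searched in the longest GENCODE coding sequence of 146 members. A KRAB-A match with fingers was found in 39 (26.7%), fingers without such a match in 95 (65.1%), and fewer than 2 finger matches in 12 (8.22%). Among rows under the threshold, 130 of 208 (62.5%) had the KRAB-A match. The pattern is strict, and no match does not mean no KRAB box. Members had a median of 9 finger matches and at most 36, in Zfp142. The 12 with fewer than 2 included Zfp36, the mRNA decay factor tristetraprolin, whose fingers are of another type, and Zfp598, an E3 ligase of stalled ribosomes. Chromosome 7 held 40 of the 147 members, chromosomes 9 and 13 held 12 each, and the X chromosome held 1, Zfp711. In 23 members at least 10% of 50-base exon windows occurred in another gene, which makes their counts uncertain. The share was 66.9% in Zfp593, 52.4% in Zfp59 and 46.6% in Zfp58.

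Zfp genes, like all genes tested, moved both ways in Nkapl knockout testis. A few that are low in day-21 testis fell steeply, a smaller share than among all genes. Of 147 members, 22 were called higher (15.0%, against 17.8% of all 16937 genes tested) and 47 lower (32.0%, against 26.1% of all genes), at an adjusted p under 0.05 in edgeR's quasi-likelihood test with Benjamini-Hochberg adjustment over all genes. With a log2 fold change of at least 1 in size added, 0 members were higher (0.189% of all genes) and 5 were lower (3.40%, against 8.60% of all genes). At any size and in either direction, 77 of 147 members and 8540 of all 16937 genes had an unadjusted p under 0.05. The median log2 fold change was −0.03 over members and 0.01 over all genes tested. Scaled by library totals alone, an alternative added after the data were seen, the split of calls moved from 22 higher and 47 lower to 38 and 33. The median was then 0.03 over members and 0.07 over all genes. With all testis libraries in one fit the counts were 9 and 17, and with libraries grouped by the files' records 0 members were called, as were 0 of all genes. Shares of all genes called with library totals or in one fit are not given here. In these bulk libraries, fewer cells of a type and less RNA per cell cannot be told apart.

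Zfp474, on chromosome 18, fell furthest. It was at 12.5, 9.77 and 13 CPM in the wild-type testis libraries and at 0.486 and 0.228 CPM in the knockout. Here and below, CPM of single genes are scaled within each set by the trimmed mean of M values (TMM), while sums of marker lists are unscaled. The groups lay far apart, a log2 difference of −5.08 ± 0.26 (SE; n = 2 against 3; edgeR adjusted p = 3.27e-11). Zfp819 (chr7:43607169-43618285, GRCm38, plus strand), a KRAB protein gene linked to transposon repression, was at 9.54, 9.54 and 9.75 CPM in wild type and 1.85 and 1.67 CPM in knockout, with a log2 difference of −2.45 ± 0.16. Zfp72 (chr13:74369326-74390836, minus strand) was at 8.22, 7.25 and 6.89 CPM in wild type and 2.04 and 1.56 CPM in knockout, a log2 difference of −2.06 ± 0.18. Both knockout libraries were below every wild-type library for each of these genes. Zfp458 (chr13:67254918-67278466, minus strand) was at 14.4, 9.99 and 11.0 CPM against 3.06 and 3.57, a log2 difference of −1.82 ± 0.17. Zfp759 (chr13:67121660-67141787, plus strand) was at 21.6, 16.7 and 18.9 CPM against 6.71 and 5.55, a log2 difference of −1.65 ± 0.13. Adjusted p-values of these 4 genes in edgeR ran from 5.8e-10 (Zfp819) to 8.81e-08 (Zfp458), with 3.5e-08 for Zfp72 and 7.09e-09 for Zfp759. The sixth was Zfp39, one of the 10 highest members in spermatocytes, at 232, 242 and 237 CPM against 139 and 130 CPM, a log2 difference of −0.81 ± 0.04 (edgeR adjusted p = 2.93e-11).

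The marker lists moved in the same libraries. Of 12 round spermatid markers, 10 were tested and all 10 were called lower in Nkapl knockout testis, with a median log2 fold change of −3.41. Their sum was 237 to 238 CPM in knockout and 451 to 484 CPM in wild type, and Tnp2, Prm1 and Prm2 were at 0 in both knockout libraries. Pachytene markers had a median of −0.12, with 1 of 12 higher and 6 lower, and 8 of 10 Sertoli markers were higher, with a median of 0.27. The part of these lists in the members' changes was not tested.

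Rises were small. Zfp704 was at 84.2 and 93.7 CPM in knockout testis against 65.6, 57.8 and 62.5 CPM in wild type, a log2 difference of 0.52 ± 0.06 (edgeR adjusted p = 6.03e-07). Zfp462 was at 78.2 and 84.5 CPM against 55.5, 55.5 and 59.3 CPM, likewise 0.52 ± 0.05 (edgeR adjusted p = 1.59e-07). In both, the knockout libraries lay above the wild-type ones. Zfp142, Zfp408, Zfp212 and Zfp951 followed at log2 differences of 0.32, 0.31, 0.29 and 0.25, and Zfp951 missed the threshold without knockout replicate 1 (edgeR adjusted p = 0.0612). For Zfp704, 16.5% of exon windows were shared with other genes, for Zfp142 17.1%.

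**Figure D2:**
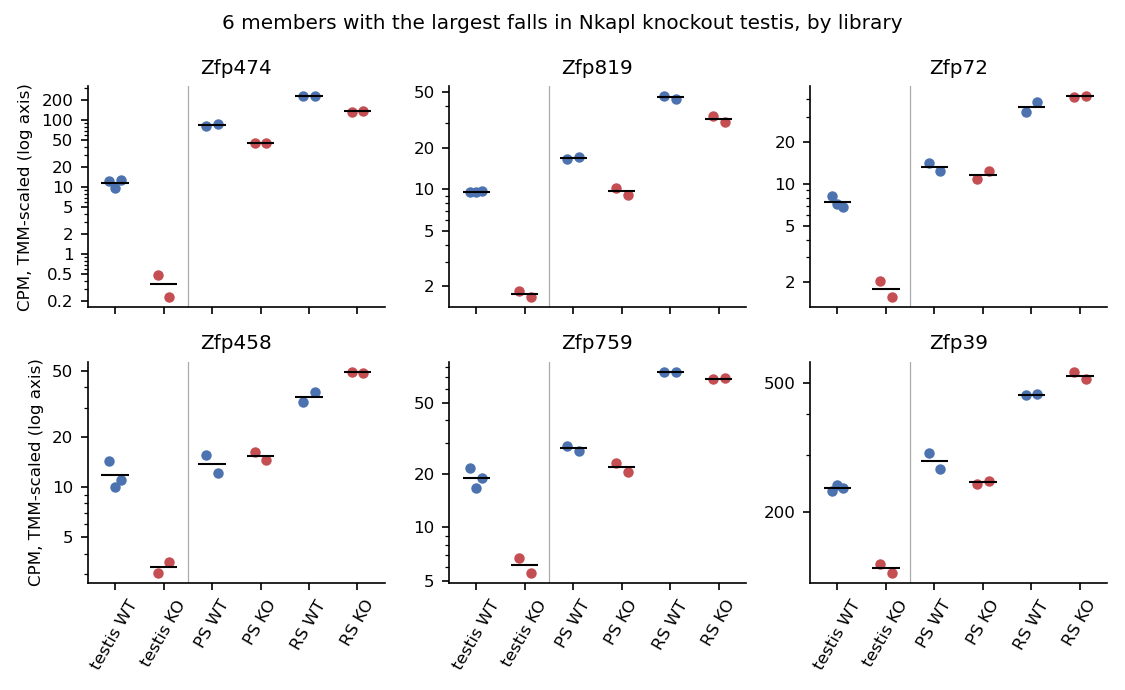
TMM-scaled CPM (log axes) of the 6 members with the largest falls in Nkapl knockout testis, by library, in testis and in pachytene spermatocytes (PS) and round spermatids (RS) of mice labelled wild type (blue) or Nkapl knockout (red); bars are group means. In testis each knockout point lies below every wild-type point, while in the cell libraries all 6 genes were higher in RS than in PS of either label.

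Lower in knockout testis were 18 of the 39 members with a KRAB-A match and 27 of the 95 with fingers and no match, with class medians of −0.14 and −0.01. Higher were 4 and 17 of them. Over all genes 26.1% were lower and 17.8% higher, and the difference between the classes was not tested. On chromosome 13, which also carries Nkapl, 7 of 12 members were lower and 2 higher, with a median of −0.39, and on chromosome 7, 17 of 40 were lower and 2 higher, with a median of −0.11. All 10 members on chromosome 17 had a negative estimate, and 6 were called. On chromosome 9, 2 of 12 were lower and 2 higher. The nearest member to Nkapl, Zfp389, lies 0.04 Mb away and is annotated as a transcribed processed pseudogene. It did not pass the test, at 22.6 and 24.3 CPM in knockout testis against 21.0, 22.8 and 23.5 CPM (log2 difference 0.07 ± 0.08). Zfp184, at 0.48 Mb, was lower at 17.5 and 17.6 CPM against 22.3, 24.4 and 23.0 CPM, a log2 difference of −0.41 (edgeR adjusted p = 0.000301). The falling genes Zfp759, Zfp458, Zfp58 and Zfp72 lie 45.65, 45.79, 46.02 and 52.9 Mb from Nkapl.

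Promoters were read for 119 of the 147 members (RefSeq, GRCm38.p6, the same coordinates as mm10; 300 bases around the most upstream RefSeq start of each gene). All motifs were searched on both strands, and none of those printed overlapped another. The first 4 sequences belong to genes of chromosome 13 that fell in knockout testis and rose from spermatocytes to spermatids, and are shown because they share a stretch. Zfp819 follows as a gene that moved alike, and Zfp37, long known from testis germ cells, as a further one. Each runs 5′ to 3′ in the direction of the gene, with motif matches on either strand in capitals. The GENCODE models of Zfp458, Zfp759 and Zfp37 begin further upstream than these RefSeq starts.
Zfp72, chr13:74390780-74391079, minus strand: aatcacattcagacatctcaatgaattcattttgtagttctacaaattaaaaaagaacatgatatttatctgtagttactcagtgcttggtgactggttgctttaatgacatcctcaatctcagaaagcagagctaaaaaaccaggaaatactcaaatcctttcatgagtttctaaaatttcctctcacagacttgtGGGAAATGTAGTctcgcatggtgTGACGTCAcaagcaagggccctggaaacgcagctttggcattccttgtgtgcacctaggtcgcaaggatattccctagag
Zfp458, chr13:67268945-67269244, minus strand: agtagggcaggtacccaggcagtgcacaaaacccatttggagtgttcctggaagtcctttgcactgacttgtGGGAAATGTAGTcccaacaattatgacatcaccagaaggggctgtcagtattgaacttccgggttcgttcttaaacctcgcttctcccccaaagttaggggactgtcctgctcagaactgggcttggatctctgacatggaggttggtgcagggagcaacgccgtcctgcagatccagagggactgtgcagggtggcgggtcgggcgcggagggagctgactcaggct
Zfp759, chr13:67127978-67128277, plus strand: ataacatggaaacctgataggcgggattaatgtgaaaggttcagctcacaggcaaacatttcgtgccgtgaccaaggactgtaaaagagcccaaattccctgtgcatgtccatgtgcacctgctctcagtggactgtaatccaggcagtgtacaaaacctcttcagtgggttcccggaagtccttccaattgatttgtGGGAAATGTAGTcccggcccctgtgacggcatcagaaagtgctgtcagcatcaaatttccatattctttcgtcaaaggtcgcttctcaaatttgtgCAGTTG
Zfp58, chr13:67500473-67500772, minus strand: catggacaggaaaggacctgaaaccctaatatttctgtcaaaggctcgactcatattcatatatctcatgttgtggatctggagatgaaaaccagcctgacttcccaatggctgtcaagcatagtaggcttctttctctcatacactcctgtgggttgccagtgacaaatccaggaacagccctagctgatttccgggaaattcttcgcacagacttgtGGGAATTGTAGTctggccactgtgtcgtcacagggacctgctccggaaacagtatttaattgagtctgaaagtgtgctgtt
Zfp819, chr7:43606919-43607218, plus strand: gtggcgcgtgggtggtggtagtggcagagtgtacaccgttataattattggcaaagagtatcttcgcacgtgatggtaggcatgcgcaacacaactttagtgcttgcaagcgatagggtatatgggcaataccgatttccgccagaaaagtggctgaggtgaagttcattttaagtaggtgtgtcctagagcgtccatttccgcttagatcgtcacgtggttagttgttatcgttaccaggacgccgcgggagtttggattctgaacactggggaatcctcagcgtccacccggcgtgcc
Zfp37, chr4:62208497-62208796, minus strand: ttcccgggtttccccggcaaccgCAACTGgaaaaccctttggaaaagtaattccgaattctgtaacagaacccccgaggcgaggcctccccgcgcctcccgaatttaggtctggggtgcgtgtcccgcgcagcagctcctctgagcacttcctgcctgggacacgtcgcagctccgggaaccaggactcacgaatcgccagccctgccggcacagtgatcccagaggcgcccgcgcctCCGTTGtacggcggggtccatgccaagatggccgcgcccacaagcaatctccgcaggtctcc

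The stretch in capitals that starts GGGAA in Zfp72, Zfp458, Zfp759 and Zfp58 matches, on the opposite strand, the core of the motif of the zinc finger factor ZNF143 (mouse Zfp143). This motif was added after these sequences had been read, so its presence in them supports nothing. It was found in 11 of 119 member promoters (9.24%), in 30 of 177 promoters of Zfp rows under the threshold (16.9%) and in 1.02% of all 27025 promoters. Among members lower in Nkapl knockout testis it was found in 6 of 40. Zfp65, Zfp169 and Zfp184, also on chromosome 13, fell in knockout testis and rose with stage but had no match to it. Zfp748, on the same chromosome, held the motif but was not called in testis and was lower in spermatids than in spermatocytes. The A-MYB core CCGTTG, whose factor drives the pachytene programme, was in 15 member promoters (12.6%, against 5.27% of all), and its other form CAGTTG in 14 (11.8%, against 13.6%). Member promoters held a median of 17 CG pairs against 7 over all promoters. Of promoters with at least 17 CG pairs, 8% held CCGTTG and 7.5% CAGTTG. Zfp37 held both A-MYB cores, CAGTTG as its reverse complement. The cAMP response element TGACGTCA was in 5 members (4.2%, against 1.85%), among them Zfp72. The NRF1 core CGCATGCG was in 7 (5.88%, against 1.92%), and the X-box letters GTTGCCAT in 1 (0.84%, against 1.34%). Of promoters with at least 17 CG pairs, 3.82% held TGACGTCA, 4.61% CGCATGCG, 0.94% GTTGCCAT and 1.5% the ZNF143 motif. No motif of this search was matched in Zfp819.

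From spermatocytes to round spermatids, more members fell than rose. In the libraries labelled Nkapl knockout, 56 of 147 members were higher in spermatids (38.1%, against 37.7% of all 15805 genes tested) and 78 were lower (53.1%, against 39.3% of all genes), by edgeR's adjusted p under 0.05. The member rule did not use these libraries, but it chose genes by their level in wild-type spermatocytes. That choice favours genes high in spermatocytes, so the members' split beside that of all genes is a description only. With a log2 fold change of at least 1 in size, 17 were higher (21.2% of all genes) and 36 lower (18.2% of all genes). The median over members was −0.22 and over all genes tested −0.04. Library-total scaling shifted the median of all genes by −0.12, and the median of members to −0.35.

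The largest stage fall was that of a pseudogene next to Nkapl. It is Zfp389, which was at 34.1 and 35.7 CPM in spermatocytes and 1.49 and 1.43 CPM in spermatids, a 23.8-fold drop (log2 difference −4.57 ± 0.13; edgeR adjusted p = 1.56e-22). Zfp212 was at 57.1 and 58.4 CPM against 6.42 and 6.02 CPM, a log2 difference of −3.21 ± 0.10. Zfp612 followed at a log2 difference of −2.96. Zfp346, which encodes a double-stranded RNA binding protein, was at 139 and 134 CPM against 20.4 and 19.0 CPM, a log2 difference of −2.79 ± 0.07. Libraries of the 2 stages did not overlap for any of these. Zfp382 and Zfp287 came next at −2.32 and −2.31.

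All 6 members with the largest stage rises were among the 47 that fell in knockout testis. Zfp72 was at 10.9 and 12.3 CPM in spermatocytes and 41.7 and 42.2 CPM in spermatids, a log2 difference of 1.85 ± 0.09 (edgeR adjusted p = 4.28e-17). Zfp819 was at 10.3 and 9.15 CPM against 33.8 and 30.5 CPM, a log2 difference of 1.73 ± 0.09. Zfp169, with a KRAB-A match, was at 14.3 and 12.2 CPM against 41.1 and 43.5 CPM, a log2 difference of 1.67 ± 0.10. Every spermatid library was above every spermatocyte library in these 3. Zfp458, Zfp759 and Zfp58 rose by 1.67, 1.66 and 1.60 on the log2 scale, and Zfp474 by 1.59, from 45.9 and 45.3 to 135 and 140 CPM. Zfp711, the member on the X chromosome, named here after its values were seen, was at 23.9 and 23.7 CPM in spermatocytes and 69.4 and 70.2 CPM in spermatids, a log2 difference of 1.55 (edgeR adjusted p = 1.96e-18).

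Of the 47 members lower in Nkapl knockout testis, 36 were called higher in spermatids than in spermatocytes, which is 76.6% of those 47 and 64.3% of the 56 that rose. Of the 22 members higher in knockout testis, 15 were lower in spermatids, which is 68.2% of the 22 and 19.2% of the 78 that fell. Over all 14942 genes tested in both comparisons, 67.8% of those lower in testis were higher in spermatids and 63.1% of those higher in testis were lower. Over the 147 members, whose values within a contrast share its libraries, Pearson's r between the stage and testis log2 fold changes was −0.44 and Spearman's rho −0.56. Without the 5 largest falls r was −0.45. Over all genes tested in both, r was −0.43 and rho −0.45. The 2 contrasts share no library.

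**Figure D3:**
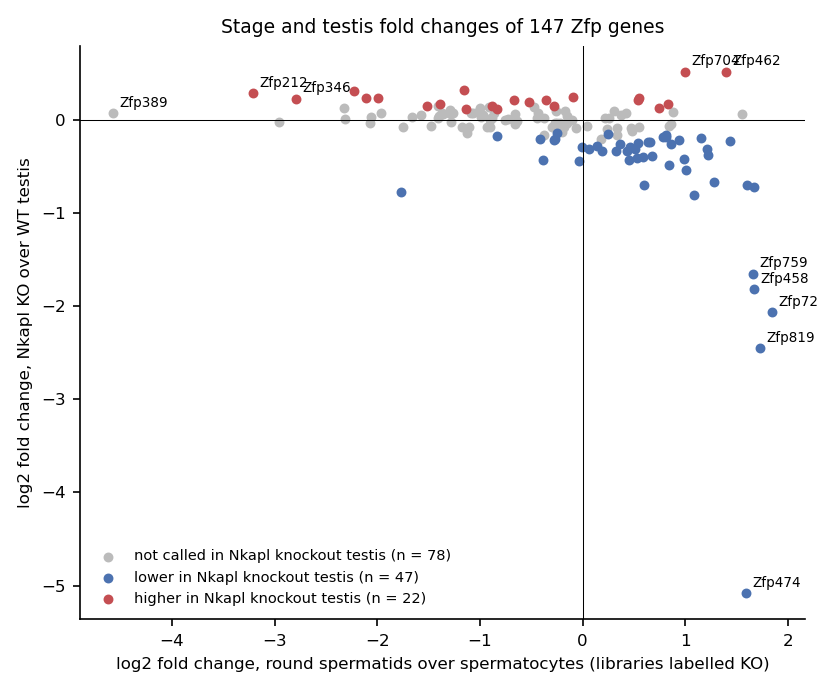
Each point is 1 of 147 members: log2 fold change of round spermatids over spermatocytes in libraries labelled Nkapl knockout (x axis) against Nkapl knockout over wild-type testis (y axis), coloured by the call in testis. The points of the 47 members lower in testis lie mostly to the right of 0, with Zfp474 at −5.08 at the bottom, and 15 of the 22 members higher in testis were lower in spermatids.

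Among 23 members with a described function, 15 were lower in spermatids, 6 higher and 2 not called, where 53.1% of members and 39.3% of all genes were lower. Lower were Zfp638, which silences unintegrated retroviral DNA (−2.07), Zfp410, the activator of Chd4 (−1.52), the pluripotency marker Zfp42, also called Rex1 (−1.48), and Zfp445, which maintains genomic imprints (−1.37), all as log2 differences. The spindle assembly gene Zfp207 (−0.97) and Zfp148 (−0.83) were lower too, as were Zfp318 (−0.83) and the ribosome assembly gene Zfp622 (−0.67). The 6 that rose were Zfp37 (1.28), Zfp451 (1.21), Zfp36 (0.88), Zfp830 (0.48), Zfp541 (0.45) and Zfp217 (0.36). Zfp143 (0.18, edgeR adjusted p = 0.119) and Zfp35 (−0.10, edgeR adjusted p = 0.0537) did not pass. Somatic marker lists moved with stage in both directions. All 10 Sertoli markers and all 6 tested Leydig markers were lower in spermatids, with median log2 fold changes of −2.09 and −1.51. All 4 tested blood and macrophage markers (median 1.77) and 4 of 7 peritubular and vascular markers (median 1.19) were higher. All 12 round spermatid markers were higher, with a median of 1.46. The part of these lists in the members' changes was not tested.

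In wild-type cells the stage values lean on the spermatocyte libraries that chose the members and are given without a test. The median member was at −0.05 and the median gene at 0.05, and 70 members had positive values. Zfp474 went from 82.7 and 86.6 CPM to 230 and 230 CPM, Zfp72 from 14 and 12.4 to 32.4 and 38.2 CPM, and Zfp389 from 19.7 and 19.3 to 0.934 and 0.636 CPM. Over the 147 members, wild-type and knockout-labelled stage differences had r = 0.96, computed from 4 libraries each with none in common and fitted together.

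In knockout round spermatids Zfp genes were more often higher than lower. Of 147 members, 68 were higher than in wild-type spermatids (46.3%, against 29.0% of all genes) and 38 lower (25.9%, against 31.0% of all genes), by edgeR's adjusted p under 0.05. Changes were modest: with a log2 fold change of at least 1 in size, 2 were higher (7.04% of all genes) and 3 lower (9.76% of all genes). The median was 0.19 over members and 0.03 over all genes tested. Scaled by library totals alone, which shifted the median of all genes by 0.11, 85 were higher and 24 lower. The median was then 0.30 over members and 0.14 over all genes. DESeq2 called 63 higher and 25 lower. Shares of all genes called under these alternatives are not given here. Members with a KRAB-A match (21 of 39 higher, 10 lower) and with fingers only (43 of 95 higher, 23 lower) had medians of 0.23 and 0.19, and those with fewer than 2 finger matches (3 of 12 higher, 5 lower) a median of −0.16.

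Zfp36 rose most. It was at 22 and 24.5 CPM in knockout spermatids and 8.29 and 7.11 CPM in wild-type spermatids, a log2 difference of 1.59 ± 0.11 (edgeR adjusted p = 1.78e-13). Zfp346 was at 20.4 and 19.0 CPM against 9.81 and 9.43 CPM, a log2 difference of 1.04 ± 0.10. Zfp35, a zinc finger gene of meiotic germ cells, was at 314 and 315 CPM against 179 and 187 CPM, a log2 difference of 0.78 ± 0.05. In each of the 3, both knockout libraries were above both wild-type ones. Zfp319 and Zfp746, which encodes a repressor of the PGC-1alpha gene, were higher by 0.81 and 0.79. Zfp389 was higher by 0.89 ± 0.31 but rested on levels near 1 CPM, and missed the threshold without knockout replicate 1 (edgeR adjusted p = 0.0684) or wild-type replicate 2 (0.182).

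Zfp219 fell most, from 34.7 and 37.6 CPM in wild-type to 10.2 and 10.2 CPM in knockout spermatids, a log2 difference of −1.82 ± 0.10 (edgeR adjusted p = 4.21e-16). Zfp414 was at 6.48 and 5.84 CPM in wild type and 2.01 and 2.75 CPM in knockout, a log2 difference of −1.37 ± 0.18, and 26.3% of its exon windows occur in another gene. Zfp704 was at 29.5 and 25.3 CPM against 12.8 and 12.9 CPM, a log2 difference of −1.09 ± 0.10. The groups did not overlap for these 3. Zfp516, a regulator of brown fat genes, Zfp317 and Zfp850 fell by 0.94, 0.88 and 0.75 on the log2 scale. Of the steep testis fallers, Zfp474 was at 135 and 140 CPM in knockout against 230 and 230 CPM in wild-type spermatids (log2 difference −0.74 ± 0.05), and Zfp819 at 33.8 and 30.5 against 47.1 and 45.2 CPM (−0.52 ± 0.07). Zfp458 went the other way, at 49.2 and 48.2 against 32.3 and 37.4 CPM (0.48 ± 0.08), as did Zfp72 (0.25 ± 0.08), while Zfp759 did not pass the test (−0.13 ± 0.06).

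Calls in testis and in spermatids therefore crossed. Of the 47 members lower in knockout testis, 18 were lower in knockout spermatids (38.3% of the 47), 18 were higher and 11 were not called. Over all genes tested in both, 50.3% of those lower in testis were lower in spermatids and 21.7% higher. Of the 22 higher in testis, 13 were higher in spermatids (59.1%), 4 lower and 5 not called, against 43.1% higher and 14.9% lower over all genes. Zfp346 was higher in both, at log2 differences of 0.23 and 1.04, as was Zfp462, at 0.52 and 0.44. Zfp451 and Zfp13 were lower in both, Zfp451 by 0.31 and 0.33 and Zfp13 by 0.42 and 0.50. Zfp574 fell by 0.33 in testis and was higher by 0.37 in spermatids, and Zfp646 fell by 0.24 and was higher by 0.44. In spermatids, all 12 round spermatid markers were lower (median −0.44). Their sum was 2753 to 2761 CPM in knockout spermatids and 7181 to 7366 CPM in wild-type spermatids. Of 12 pachytene markers, 7 were higher and 1 lower (median 0.21). All 6 tested Leydig markers were higher (median 1.54, sums of 19.8 to 21 CPM against 7.27 to 7.44). The part of these lists in the members' changes was not tested.

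**Figure D4:**
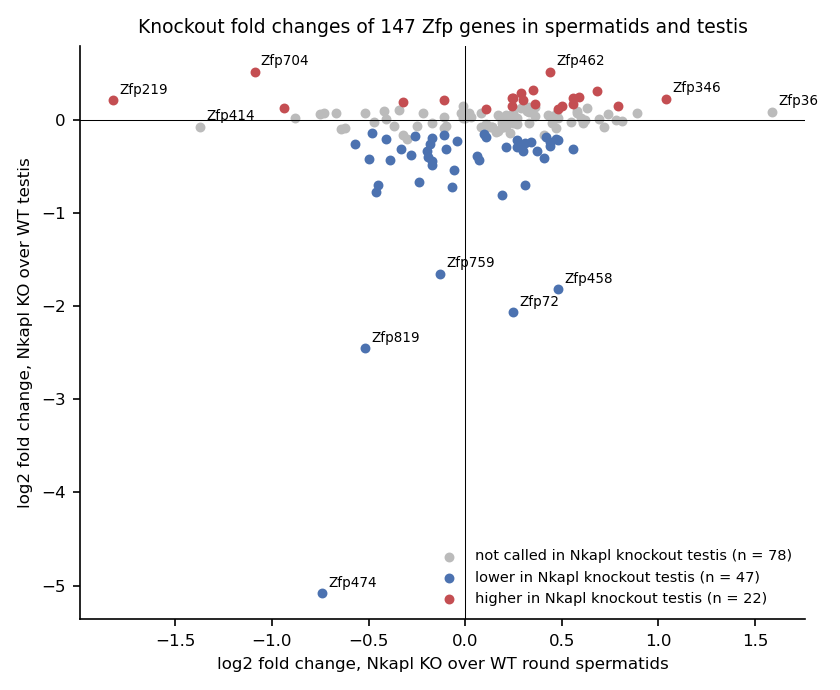
Each point is 1 of 147 members: log2 fold change of Nkapl knockout over wild type in round spermatids (x axis) and in testis (y axis), coloured by the call in testis. Points fall in all 4 quadrants; of the 47 members lower in testis, 18 were called lower and 18 higher in spermatids.

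In the spermatocyte libraries labelled knockout, whose Nkapl level went against the label, values lean on the libraries that chose the members and carry no test. Here 111 of 147 members had positive log2 differences from wild type, with a median of 0.31 against 0.07 over all genes. Zfp35 was at 341 and 333 CPM against 230 and 220 CPM, Zfp346 at 139 and 134 against 74.1 and 72.1 CPM, and Zfp212 at 57.1 and 58.4 against 28.1 and 32.6 CPM. Lower in the same libraries were Zfp219 at 7.30 and 6.77 against 17.9 and 20.4 CPM and Zfp474 at 45.9 and 45.3 against 82.7 and 86.6 CPM.

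Sox30 knockout testis gave almost no calls among Zfp genes. Of 147 members, 0 were higher (0.505% of all 17816 genes tested, and DESeq2 called 0) and 1 was lower (1.92% of all genes), by edgeR's adjusted p under 0.05. In either direction, 11 of 147 members and 1552 of all 17816 genes had an unadjusted p under 0.05. The gene called lower was Zfp72, at 2.88 and 2.87 CPM in knockout and 9.98, 14 and 6.61 CPM in wild type. Its log2 difference was −1.83 ± 0.32 (edgeR adjusted p = 0.0359). The knockout libraries lay below the wild-type ones. The call was lost without either knockout library (edgeR adjusted p = 0.245 and 0.187) or wild-type replicate 1 (0.163), and under another scaling (0.0527). Zfp458 was at 5.77 and 5.86 CPM against 13.4, 21.3 and 10.7 CPM (log2 difference −1.38 ± 0.30, edgeR adjusted p = 0.0738). Zfp474 (7.10 and 31.0 against 18.3, 27.8 and 10.2 CPM) and Zfp819 (10.1 and 24.5 against 11.4, 13.7 and 8.06 CPM) overlapped between groups. The 2 knockout libraries differed strongly from each other in these 2 genes. Round spermatid markers had a median of −4.12 with 4 of 12 called lower, and epididymal markers summed to 42.4 to 66.4 CPM in knockout against 5.52 to 7.3 CPM. The part of these in the members' values was not tested.

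In TGdel testis 1 member was called higher (0.20% of all 16011 genes tested) and 0 lower (1.05% of all genes), by edgeR's adjusted p under 0.05. DESeq2 called 8 higher and 1 lower, and its share over all genes is not given here. In either direction, 38 of 147 members and 2476 of all 16011 genes had an unadjusted p under 0.05 in edgeR. The gene called by edgeR was Zfp35, at 253, 248 and 274 CPM against 177 and 180 CPM in its wild type. Its log2 difference was 0.53 ± 0.08 (edgeR adjusted p = 0.0245). All TGdel libraries were above both wild-type ones. The call was lost without either wild-type library (edgeR adjusted p = 0.379 and 0.132) or TGdel replicate 2 (0.118), and without the filter on low counts (0.0559). Over members 101 of 147 estimates were positive, with a median of 0.11 against 0.00 over all genes. Zfp474, Zfp819 and Zfp458 had log2 differences of −1.38 ± 0.47, −1.17 ± 0.29 and −1.17 ± 0.43 and did not pass (edgeR adjusted p = 0.205, 0.0969 and 0.237). Zfp474 was at 0.964, 2.77 and 4.20 CPM against 8.67 and 5.18 CPM, so the groups did not overlap. All 10 tested round spermatid markers had negative estimates, with a median of −1.33, and 9 had groups apart, but none was called. Their sum was 375 to 458 CPM in TGdel against 500 to 574 CPM, with Prm1 at 0 in all TGdel libraries, and their part in the members' values was not tested.

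**Figure D5:**
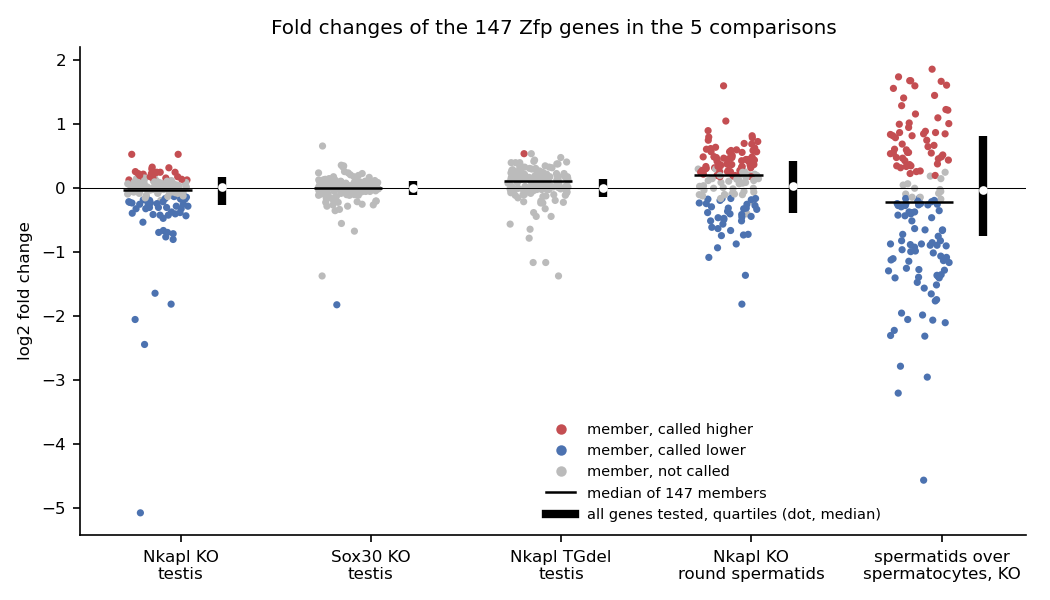
Log2 fold changes of the 147 members in the 5 comparisons tested (coloured points by call, thin line their median), beside the median (dot) and quartiles (thick bar) of all genes tested. Members spread most between stages; their median sits above that of all genes in knockout spermatids (0.19 against 0.03).

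The co-repressor list of 27 symbols, 25 of them tested, covers the proteins that KRAB boxes recruit and their partners. Fam208a and Tasor in the list name the same gene. In Nkapl knockout testis 5 were higher and 7 lower, in knockout spermatids 14 higher and 4 lower, and from spermatocytes to spermatids 9 higher and 13 lower. Over all genes the shares were 17.8% and 26.1% in testis, 29.0% and 31.0% in spermatids, and 37.7% and 39.3% between stages. Trim28, the scaffold that KRAB boxes bind, was at 648 and 611 CPM in knockout testis against 616, 636 and 617 CPM (log2 difference 0.01 ± 0.04), and did not pass. In knockout spermatids Trim28 was at 590 and 564 CPM against 478 and 510 CPM, a log2 difference of 0.22 ± 0.05 (edgeR adjusted p = 0.000175). Setdb1 was higher in knockout testis by 0.18 ± 0.04 and in knockout spermatids by 0.21 ± 0.06, and lower in spermatids than spermatocytes by a log2 difference of −1.10 ± 0.06. The DNA methyltransferase Dnmt1 was at 217 and 219 CPM in knockout testis against 171, 174 and 175 CPM (0.33 ± 0.04), and at 48.6 and 43.1 CPM in knockout spermatids against 20.7 and 20.6 CPM (1.15 ± 0.08). Morc2a, a silencing factor of the HUSH pathway, was at 185 and 181 CPM in knockout spermatids against 90.8 and 92.3 CPM (edgeR adjusted p = 4.53e-15). Trim66 and Chd3 were lower there, by log2 differences of −0.68 and −0.66. From spermatocytes to spermatids Mphosph8, Cbx1, Dnmt1 and Morc3 had log2 differences of −2.84, −2.65, −2.03 and −1.98, and all 4 passed.

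Other zinc finger genes were counted in the same fits. Of the 195 Zfp rows under the threshold that passed the filter in Nkapl testis, 22 were higher and 12 lower, with a median log2 fold change of 0.11. Zbtb genes had 11 of 35 higher and 4 lower (median 0.10), Zscan genes 1 of 10 higher and 5 lower (median −0.15), and Zkscan genes 0 of 11 higher and 2 lower (median 0.07). In knockout spermatids 15 of 35 Zbtb genes were higher and 3 lower (median 0.25), 4 of 10 Zscan genes were higher and 1 lower (median 0.14), and 3 of 10 Zkscan genes were higher and 3 lower (median −0.08). Over all genes 29.0% were higher and 31.0% lower. Of 167 Zfp rows under the threshold 40 were higher and 33 lower (median 0.29). From spermatocytes to spermatids, 24 of these 167 rows were higher and 91 lower, with a median of −0.74 against −0.22 for members. Differences between these families were not tested.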

How the data were processed

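Per the labels' protocols, total RNA was made into strand-specific TruSeq libraries. The tools named in the submitters' processing notes are HISAT2 2.1.0, HTSeq and DESeq2, and the build is mm10. The authors deposited whole-number read counts per gene, not normalized. The strand setting of the counting is not given in the sources used here. It is therefore not known whether reads of an antisense neighbour were counted to a gene. Summary rows that name no gene, 18.8% to 24.6% of the spermatocyte and spermatid libraries, were left out of totals.

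Members and lists were chosen with earlier results of these data known. Genes named are the 10 highest members, those at the threshold, up to 6 largest rises and falls per comparison among called members with groups apart, members called in both testis and spermatids, a list of described functions, and leading co-repressors. Counts were tested with edgeR 4.0.16 (R 4.3.3; filterByExpr, TMM, quasi-likelihood F test, two-sided, Benjamini-Hochberg over all tested genes, threshold 0.05). Each of the testis sets had a fit of its own, and the 8 spermatocyte and spermatid libraries shared one. SE is the log2 fold change over the root of F. Proteins were translated from GENCODE M21 (GRCm38, as mm10), with no RefSeq protein table used here, and all 147 members matched. Promoter motifs were picked after the count files were seen, the ZNF143 motif after the promoters had been read, and the NRF1 motif was shortened to its core after a longer form had been counted. Alternatives were DESeq2 1.42.0, other scalings, no filter, other groupings of libraries and leaving out each library. On simulated counts with 100 genes changed per size, a log2 change of 0.5 was called in 94 (Nkapl testis), 7 (Sox30), 42 (TGdel), 97 (spermatids) and 95 (stage) of them.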

Additional observations from a re-analysis of the deposited data

Results flagged for a closer look

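In 22 members both groups lay apart in testis and in round spermatids but in opposite directions, which is why they are given here; the difference between the 2 effects was not tested. They are 15% of members, and 9.07% of all 14942 genes tested in both comparisons met the same description. In 18 of them the gene was higher in knockout spermatids and lower in knockout testis. Zfp78, Zfp54 and Zfp458 had log2 differences of 0.56, 0.48 and 0.48 in spermatids, against −0.31, −0.22 and −1.82 in testis. Zfp128, Zfp667 and Zfp646 had log2 differences of 0.47, 0.44 and 0.44 in spermatids, against −0.20, −0.28 and −0.24 in testis. Zfp12, Zfp184 and Zfp574 had log2 differences of 0.42, 0.41 and 0.37 in spermatids, against −0.18, −0.41 and −0.33 in testis. Zfp943, Zfp944 and Zfp296 had log2 differences of 0.34, 0.31 and 0.31 in spermatids, against −0.24, −0.25 and −0.70 in testis. Zfp110, Zfp768 and Zfp688 had log2 differences of 0.30, 0.27 and 0.27 in spermatids, against −0.33, −0.22 and −0.29 in testis. Zfp72, Zfp51 and Zfp39 had log2 differences of 0.25, 0.21 and 0.19 in spermatids, against −2.06, −0.29 and −0.81 in testis. The other 4 were lower in knockout spermatids and higher in knockout testis. Zfp219 differed by −1.82 ± 0.10 in spermatids and 0.21 ± 0.05 in testis. Zfp516 differed by −0.94 ± 0.07 in spermatids and 0.13 ± 0.05 in testis. Zfp704 differed by −1.09 ± 0.10 in spermatids and 0.52 ± 0.06 in testis. Zfp809 differed by −0.32 ± 0.13 in spermatids and 0.19 ± 0.07 in testis.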

How the results depend on the processing

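Grouped by the files' own records instead of column names, 0 members were called in each direction in Nkapl testis and in Sox30 and TGdel testis, as were 0 of all genes. With all testis libraries in one fit, Nkapl testis had 9 members higher and 17 lower, Sox30 1 and 4, and TGdel 8 and 0. Library totals alone gave 38 higher in Nkapl testis, 2 lower in Sox30 and 24 lower in knockout spermatids. DESeq2 called 3 lower in Sox30, 8 higher and 1 lower in TGdel, and 25 lower in spermatids. Another scaling (RLE) gave 0 lower in Sox30. Without the filter, Sox30 had 2 lower and TGdel 0 higher, and with libraries whose name and record agree, 2 and 0. With a replicate block, Sox30 had 2 higher and 6 lower and TGdel 0 higher; deviations of same-numbered libraries correlated by −0.061 to 0.361 with 2 pairs per comparison, so the numbers were not taken as pairs, and the block moved no other count by over 1.5 times. Leaving out 1 library gave 0 to 2 lower in Sox30, 0 to 4 higher and 0 to 1 lower in TGdel, 15 to 26 higher and 33 to 43 lower in Nkapl testis, 48 to 58 higher and 31 to 36 lower in spermatids, and 54 higher and 73 to 75 lower between stages. The cause of these changes was not tested. Apart from the grouping by record, shares of all genes called under these alternatives are not given, so the counts describe the members alone. Of 603 values for the named genes under alternatives, 563 stayed on their side of the threshold, 40 lost the call and 0 reversed; 21 of the losses came from grouping by record. The member count was 195 at 5 CPM, 99 at 20 CPM and 136 with TMM-scaled CPM. With 2 libraries in some arms, a left-out fit assumes that the lone library varies like the others. In the simulated Sox30 comparison 7 of 100 genes changed by a log2 of 0.5 were called, so changes of that size were mostly not detectable there.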
